A study of Mus musculus with 2 samples.

Results

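The 51 genes described here are the matrix metalloproteinases, their tissue inhibitors and the ADAMTS family of the mouse, as they were expressed in heart. They were taken by a rule on symbol and annotation, chosen with earlier results of these data known. It takes every gene whose symbol starts with Mmp or Timp and a digit, or with Adamts, and that has a protein-coding transcript. The rule took 51 of 55536 annotated genes, namely 23 Mmp, 4 Timp, 19 Adamts and 5 Adamtsl genes, and all 51 were found in both kinds of deposited table. The samples were 2 heart tissue libraries of adult male 5xFAD/CAST mice, 8 to 10 months old. 5xFAD is a transgenic mouse line that models amyloid deposition, with human transgenes driven by the neuronal Thy1 promoter, and CAST mice descend from wild-caught animals. Both libraries carry these backgrounds and the same labels apart from the replicate number and the sample identifiers. There was no other group, so the data have no contrast between conditions, and no p-value was computed. The labels call the libraries biological replicates and name separate tissue samples, yet give both a single donor identifier. The spread between library 1 and library 2 may therefore be partly technical.

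Matrix metalloproteinases are zinc-dependent enzymes that cut collagens, gelatin, laminins and other proteins of the extracellular matrix, and are made as inactive precursors. ADAMTS enzymes are secreted zinc proteases with thrombospondin-type repeats that cut proteoglycans, procollagens or von Willebrand factor, while ADAMTS-like proteins have the repeats without the protease domain. TIMP proteins bind the active site of matrix metalloproteinases and block it. In the heart this balance is studied for its part in fibrosis and in the remodelling of the ventricle after injury.

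The coding sequence of the active site is what the proteases have and the inhibitors and ADAMTS-like genes lack, and it is shown here for 9 of the detected proteases. The pattern searched was the zinc-binding site of this enzyme class, read in frame in the annotated coding sequences: histidine, glutamate, any 2 residues, histidine, any 2, glycine or asparagine, any 2, histidine. Capitals mark the codons of the fixed residues.
Mmp15: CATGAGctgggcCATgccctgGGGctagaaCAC
Mmp2: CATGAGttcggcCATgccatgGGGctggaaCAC
Mmp14: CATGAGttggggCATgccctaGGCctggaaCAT
Adamts7: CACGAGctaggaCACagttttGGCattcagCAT
Adamts10: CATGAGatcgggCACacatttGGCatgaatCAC
Adamts5: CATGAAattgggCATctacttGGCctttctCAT
Adamts1: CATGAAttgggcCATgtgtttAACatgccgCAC
Adamts9: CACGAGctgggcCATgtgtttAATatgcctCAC
Adamts15: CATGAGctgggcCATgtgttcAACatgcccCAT
The site was found in all 23 Mmp genes, in 18 of 19 Adamts genes, and in none of the 5 Adamtsl and 4 Timp genes. Of all 21901 genes with an annotated coding sequence, 74 (0.338%) held it. With glycine alone in the eighth place it was found in 23 Mmp and 13 Adamts genes. The proteoglycan-cutting enzymes Adamts1, Adamts9 and Adamts15 have an asparagine codon there, as the last 3 lines show, and the pattern was not found in Adamts8. The cysteine switch, whose cysteine holds the zinc in the inactive precursor, was searched as proline, arginine, cysteine, glycine, any residue, proline, aspartate. It was found in 17 of 23 Mmp genes and in no other gene, and these letters were not in Mmp11, Mmp17, Mmp19, Mmp23, Mmp25 and Mmp28. A furin-type pattern (arginine, any residue, lysine or arginine, arginine) was searched anywhere in the coding sequence, whatever its place or the length of the sequence. It was found in 11 Mmp, 18 Adamts, 2 Adamtsl and 0 Timp genes, against 24.9% of all genes. Whether a match lies where a precursor is cut was not tested, and longer sequences match more readily. Within the stretch of 33 bases, Mmp15 and Mmp2 were identical at 29 and Adamts1 and Adamts9 at 28, against 19 for Mmp15 and Adamts1. Identity did not follow family throughout, with 18 for Adamts5 and Adamts9 and 22 for Mmp14 and Adamts10. Part of each match comes from the pattern itself, which fixes the codons in capitals up to synonymous bases. In mm10 the Mmp15 stretch is at chr8:95368585-95368617, that of Mmp2 at chr8:92839279-92839311 and that of Mmp14 at chr14:54437627-54437659. These 3 are on the plus strand, each within a single coding exon. All 6 Adamts stretches shown are split by an intron, as in Adamts7 between the ends of chr9:90179456-90180640 on the plus strand and in Adamts1 between those of chr16:85799191-85799545 on the minus strand. The other 4 lie at chr17:33538157-33538279 (Adamts10, plus strand), chr16:85878015-85887826 (Adamts5, minus), chr6:92905285-92908493 (Adamts9, minus) and chr9:30911255-30911690 (Adamts15, minus).

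The inhibitors share a different stretch, at the start of the mature protein, which reaches into the active site of the protease. The pattern searched was cysteine, any residue, cysteine, any, proline, any, histidine, proline, glutamine, and it was found in the 4 Timp genes and in no other gene. That pattern was added later, for this family, so its presence in the 4 is a description and not a test. Capitals again mark the codons of the fixed residues.
Timp3: TGCacaTGCtctCCCagcCATCCCCAG
Timp2: TGCagcTGCtccCCGgtgCACCCGCAA
Timp4: TGCagcTGTgcgCCTgcgCACCCCCAG
Timp1: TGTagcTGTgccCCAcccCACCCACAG
Over these 27 bases, Timp3 matched Timp2 at 17 and Timp1 at 16, while Timp4 matched Timp1 at 21. The stretches lie in coding exons at chr10:86300923-86300949 (Timp3, plus strand), chr11:118354986-118355012 (Timp2, minus), chr6:115251665-115251691 (Timp4, minus) and chrX:20871111-20871137 (Timp1, plus). All sequences are those of the reference genome, not of these animals.

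Expression was read from the deposited TPM, a measure of transcript abundance that is scaled for length and for library size. Each library has a first quantification, a gene table with the columns of RSEM, and a second quantification, a transcript table with the columns of kallisto, whose values were summed per gene. Values are of the first unless the second is named, and means are given ± SD over the libraries (n = 2). Detected here means 1 TPM or more in each library. The libraries held 39819960 and 37060119 expected counts. Cardiomyocyte markers summed to 18266 and 18469 TPM and all 6 were detected, as the tissue label says. Markers of fibroblasts, endothelial cells, mural cells, macrophages and mesothelium were all detected, and 0 of 5 neutrophil markers were. Of these 5, Ly6g, Camp and Elane had 0 counts, while S100a8 had 4 and 4 counts and S100a9 had 6 and 0. In bulk tissue, fewer cells of a type and less RNA per cell cannot be told apart.

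The highest levels were those of the inhibitors Timp3, Timp2 and Timp4, the ADAMTS-like genes Adamtsl5 and Adamtsl4 and the proteases Mmp15 and Mmp2, and most of the 51 genes were low or had no counts. Of the 51 genes, 20 were detected in both libraries, against 48.9% of all protein-coding genes. The second quantification detected the same 20, against 49.2% of protein-coding genes there. A further 21 had counts but stayed below that level, and 10 had 0 counts in both libraries, against 25.2% of protein-coding genes with none. Detection took in 3 of 4 Timp, 5 of 23 Mmp, 8 of 19 Adamts and 4 of 5 Adamtsl genes. Together the 51 genes held 0.0450% ± 0.00132 of the TPM of protein-coding genes. The median level of the detected members was 3.84 TPM, against 7.62 for all detected protein-coding genes, and 7 members stood at 10 TPM or more in both libraries.

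**Figure D1:**
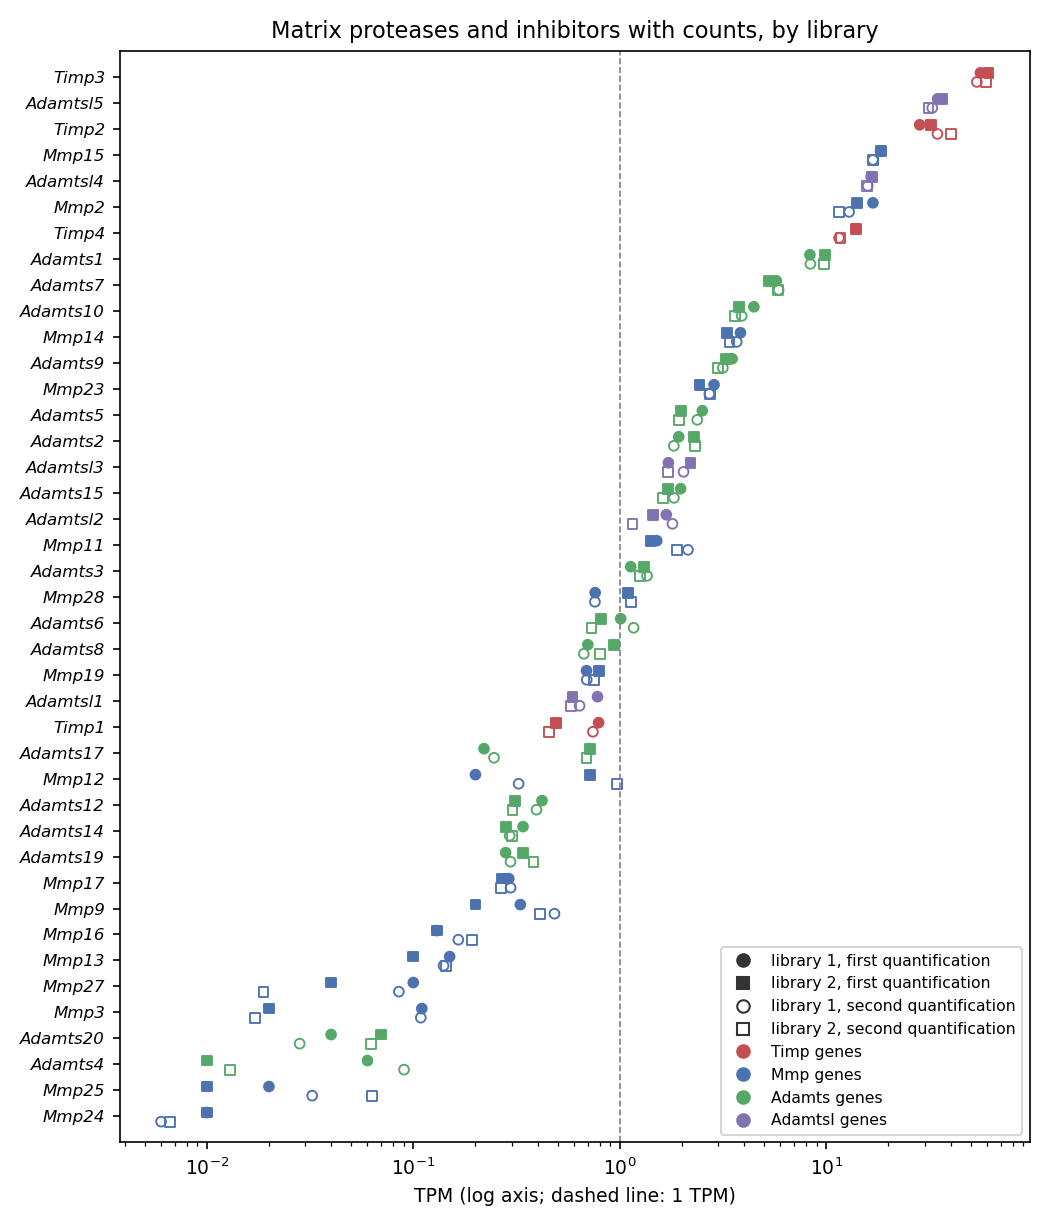
TPM on a log axis for the 41 members with counts in the first quantification, by library (circle, square) and quantification (filled, open), coloured by family. Timp3 leads at 55.8 and 61.0 TPM, and 20 members lie to the right of the dashed line at 1 TPM in all 4 values.

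The inhibitors led by summed level. The Timp genes summed to 98.9 TPM in library 1 and 107 in library 2 (103 ± 6.05), the Mmp genes to 46.1 and 43.1 (44.6 ± 2.16), the Adamts genes to 32.6 and 33.0 (32.8 ± 0.233) and the Adamtsl genes to 55.3 and 57.2 (56.3 ± 1.36). Timp transcripts thus outnumbered Mmp transcripts 2.14-fold and 2.49-fold in the libraries, and Mmp and Adamts transcripts together 1.26-fold and 1.41-fold. These are ratios of mRNA and say nothing of protein or of enzyme activity.

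Timp3, the inhibitor that binds to the matrix and also blocks ADAMTS and ADAM enzymes, was the most abundant member. It stood at 55.8 TPM in library 1 and 61.0 in library 2 (58.4 ± 3.66), rank 817 among protein-coding genes, and held 56.6% ± 0.235 of the Timp TPM. Timp2, which inhibits Mmp2 and is also needed to activate its precursor at the cell surface, stood at 28.3 and 32.1 TPM (30.2 ± 2.63). Timp4, the inhibitor best known from heart, was level between the libraries, at 14.0 and 13.9 TPM. The order Timp3, Timp2, Timp4 was the same in every library and quantification, with no overlap between them. Timp1, which is induced by injury and inflammation in many tissues, was not detected, with 20 and 12 counts or 0.79 and 0.49 TPM. It held 0.628% of the Timp TPM.

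The Timp genes other than Timp2 each lie inside a synapsin gene on the opposite strand: Timp3 (chr10:86300372-86349506, plus strand) in Syn3, Timp4 (chr6:115241892-115252205, minus) in Syn2 and Timp1 (chrX:20870166-20874735, plus) in Syn1. Synapsins coat synaptic vesicles in neurons. Here Syn3 stood at 0.25 TPM in both libraries, Syn2 at 1.97 and 2.34, and Syn1 at 0.06 and 0.07, each below its nested partner. Exons on opposite strands shared 1733 bases for Timp3 and Syn3, 90 for Timp4 and Syn2 and 0 for Timp1 and Syn1. The library kit keeps strand, per the labels, but whether the counting used it is not given in the sources used here.

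Among the Mmp genes, Mmp15 and Mmp2 held most of the family's TPM. Mmp15, a membrane-type protease (chr8:95352268-95375080, plus strand), stood at 18.3 and 18.5 TPM (18.4 ± 0.106). Mmp2, the gelatinase made by fibroblasts and other stromal cells (chr8:92827291-92853420, plus), stood at 16.8 and 14.1 (15.5 ± 1.93). Their shares of the Mmp TPM were 41.3% ± 2.23 and 34.6% ± 2.66. Mmp15 was the higher in each library and in each quantification, though Mmp2 came within 1.09-fold of it in library 1.

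The remaining detected Mmp genes were far lower. Mmp14, the membrane-type protease that activates the Mmp2 precursor, stood at 3.84 and 3.30 TPM, so Mmp2 exceeded it 4.32-fold ± 0.0781. Mmp23 stood at 2.86 and 2.43 TPM, and Mmp11, a stromelysin activated inside the cell by furin, at 1.51 and 1.41. Mmp28 straddled the detection level, with 0.76 TPM in library 1 and 1.10 in library 2. Mmp19 was just below it in both, at 0.69 and 0.79. Of the membrane-type group, Mmp15 and Mmp14 were detected, and Mmp17 (0.29 and 0.27 TPM), Mmp16 (0.13 in both), Mmp25 and Mmp24 (at most 0.02) were not.

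The gelatinases differed widely from each other. Mmp9, a gelatinase stored by neutrophils and made by activated macrophages, had 28 and 13 counts, at 0.33 and 0.20 TPM. Mmp2 thus exceeded it 51.0-fold in library 1 and 70.5-fold in library 2, and 26.7-fold and 28.1-fold in the second quantification, where Mmp9 was set higher, at 0.447 ± 0.0500. Mmp2 was set lower there, at 12.2 ± 0.948 against 15.5 ± 1.93, so both genes moved the ratio downwards.

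A cluster of 10 Mmp genes on chromosome 9 was close to silent. Within chr9:7272514-7699585 lie Mmp13, Mmp12, Mmp1b, Mmp3, Mmp1a, Mmp10, Mmp8, Mmp27, Mmp20 and Mmp7, which include the interstitial collagenases, the stromelysins Mmp3 and Mmp10, matrilysin and macrophage elastase. None was detected. Together they had 36 counts in library 1 and 29 in library 2, and summed to 0.56 and 0.88 TPM. Most of this came from Mmp12, the macrophage elastase, with 12 and 18 counts, and Mmp13, a collagenase, with 13 and 8. Mmp3 had 6 and 1 counts and Mmp27 5 and 2. The other 6, among them the neutrophil collagenase Mmp8, had 0 counts, which at this depth allows up to 3 counts in each library. Of the 4 collagenases, Mmp13 alone had any counts.

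Adamts1 led its family. This enzyme, which cuts the proteoglycan versican, stood at 8.33 and 9.87 TPM (9.10 ± 1.09) and held 27.7% ± 3.12 of the Adamts TPM. Its neighbour on chromosome 16, Adamts5, an aggrecan- and versican-cutting enzyme, stood at 2.51 and 1.98. Adamts9, a secreted proteoglycanase of vessels and the developing heart, stood at 3.50 and 3.26, and Adamts15 at 1.97 and 1.71. Of the 7 members of the proteoglycanase group these 4 were detected. Adamts8, beside Adamts15 on chromosome 9, stood just below the level at 0.70 and 0.94 TPM, while Adamts4, with 9 and 2 counts, and Adamts20, with 6 and 8, were close to 0.

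In the other Adamts groups, 4 members were detected. Adamts7, which cuts cartilage oligomeric matrix protein, stood at 5.73 and 5.28 TPM, and its relative Adamts12 at 0.42 and 0.31. Adamts10, which supports fibrillin microfibrils, stood at 4.46 and 3.78, and its relative Adamts6 at 1.01 and 0.81, on either side of the detection level. Of the procollagen N-proteinases, which trim fibrillar procollagens so that fibrils can form, Adamts2 stood at 1.93 and 2.29 TPM and Adamts3 at 1.13 and 1.31, while Adamts14 stood at 0.34 and 0.28. Adamts13, the plasma protease of von Willebrand factor, had 0 counts, and the gene of its substrate, Vwf, stood at 26.3 and 26.5 TPM. Among the remaining Adamts genes, Adamts17 (0.22 and 0.72 TPM) and Adamts19 (0.28 and 0.34) had counts, and Adamts16 and Adamts18 had none in the first quantification. The second listed Adamts18 at 0.0300 and 0.0653 TPM.

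The ADAMTS-like genes, which lack the protease domain, summed to more TPM than the Adamts genes, mostly through Adamtsl5 and Adamtsl4. They also summed to more than the Mmp genes with all transcripts counted, but not with protein-coding transcripts alone. Adamtsl5 (chr10:80339110-80348412, minus strand) was second of all members at 34.6 and 36.4 TPM (35.5 ± 1.22), above Timp2. In the second quantification the order was the opposite, with Adamtsl5 at 31.9 ± 0.925 and Timp2 at 37.4 ± 4.08, so the data do not fix it. Adamtsl4, a fibrillin-binding protein, stood at 16.5 and 16.6 TPM, between the values of Mmp2 in the libraries. Adamtsl3 stood at 1.72 and 2.20, and Adamtsl2, which binds fibrillin and latent TGF-beta binding protein, at 1.68 and 1.45. Adamtsl1 was below the level at 0.78 and 0.59.

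Not all of this TPM lay on transcripts annotated as coding for protein. Of the 20 detected members, 5 had under 75% of their TPM on protein-coding transcripts, against 23.8% of all detected protein-coding genes, so their share is near the background. The 5 were Adamtsl5 with 50.03% ± 1.90, Adamtsl2 with 53.0% ± 0.0900, Mmp14 with 52.9% ± 0.680, Adamts7 with 62.4% ± 7.06 and Adamts10 with 30.5% ± 7.25. In all 5, transcripts that keep an intron held the largest part of the rest, from 26.7% in Adamts7 to 48.2% in Adamts10. Counted by protein-coding transcripts, Adamtsl5 fell from 35.5 to 17.7 TPM, below Timp2 and Mmp15, and Adamts10 from 4.12 to 1.27. Adamts10 and Adamtsl2 were then below 1 TPM in a library, which left 18 members detected.

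**Figure D2:**
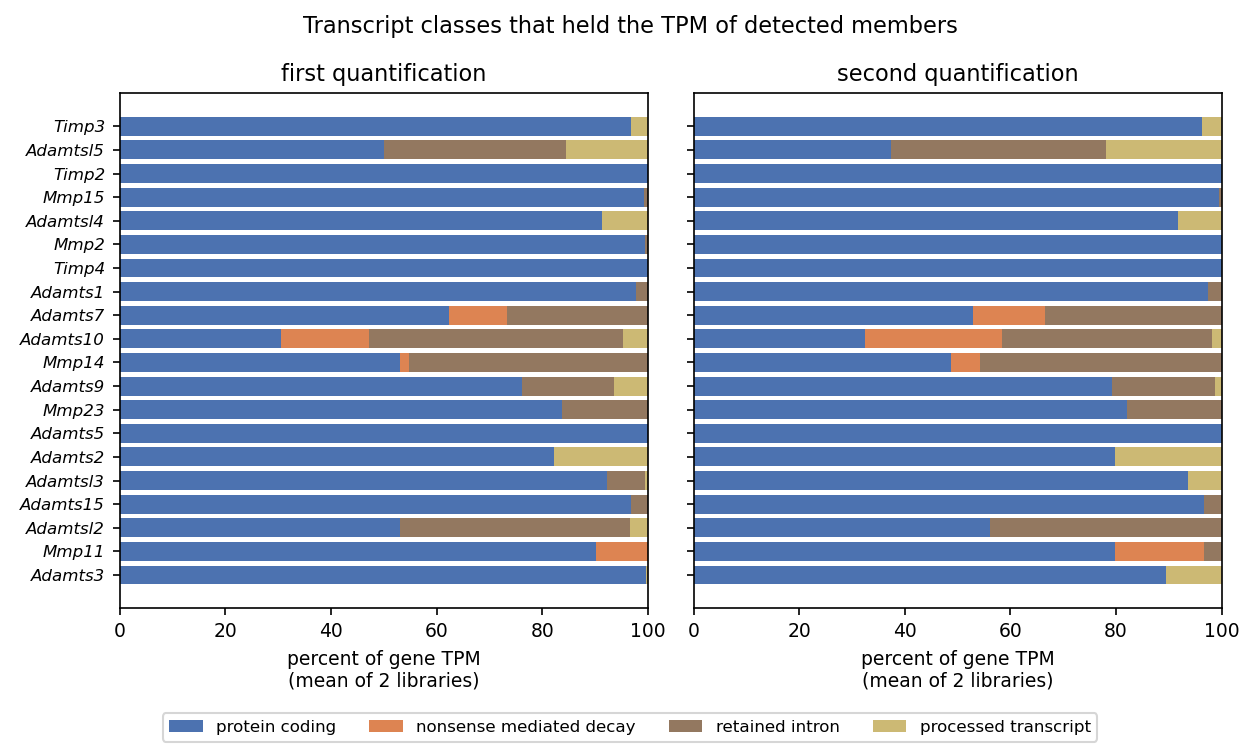
Percent of each detected member's TPM held by protein-coding, nonsense-mediated decay, retained-intron and processed transcripts (mean of 2 libraries), in the first quantification on the left and the second on the right. Timp2, Timp4, Mmp15 and Adamts5 are almost wholly protein coding in both, and Adamts10, Adamtsl5, Mmp14, Adamtsl2 and Adamts7 are mixed in both.

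The leading transcript was the same in all 4 combinations of library and quantification for 16 of the 20. It was protein coding for 19 in the first quantification and for 18 in the second. The same counts over all detected genes were not made. In the first quantification Adamtsl5 was near a tie, with the coding Adamtsl5-201 at 30.3% and the retained-intron Adamtsl5-203 at 28.9%. So was Adamts10, with the retained-intron Adamts10-208 at 15.7% and the coding Adamts10-201 at 15.6%. Timp3-201 (4722 bases) held 94.5% ± 0.831 of Timp3, Mmp15-201 (5135 bases) 99.3% ± 0.0345 of Mmp15, and Adamts5-201 is the only transcript of its gene. Timp4 was split between a long form, Timp4-201 of 5496 bases, at 7.86 and 7.61 TPM, and a short form, Timp4-202 of 945 bases, at 6.12 and 6.32 TPM. The long form held 55.4% ± 1.13 of the gene's TPM, and 67.2% ± 1.41 in the second quantification. For Timp2 the latter put the long Timp2-201 and the short Timp2-202 (718 bases) nearly level, at 50.6% ± 3.72 and 49.4%, where the first gave 67.3% ± 5.08 to the long form. No transcript of Adamts10 passed 30% in any table: its coding transcript Adamts10-201 held 24.0% in library 1 and 7.16% in library 2, and the retained-intron transcripts Adamts10-208 and Adamts10-213 led on average in the first and the second quantification.

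The sequences shown above can be set against these shares. Both transcripts of Timp4 hold the inhibitory start, but of Timp2 only Timp2-201 does in the annotation, since Timp2-202 holds a coding sequence without it. Of Mmp2, the full-length Mmp2-201 holds the zinc site, with 68.5% ± 2.14 of the gene's TPM, or 86.7% ± 0.0487 by the second quantification, and the short Mmp2-203 of 674 bases does not. Over the 13 detected proteases, all with the site in at least 1 transcript, 4 had at least 90% of their TPM on transcripts with it: Mmp15, Adamts5, Adamts1 and Adamts15. Mmp14 (53.0% ± 0.778) and Adamts10 (15.6% ± 11.9) had under 60%, joined in the second quantification by Adamts7 (52.8% ± 9.15) and Mmp11 (51.2% ± 14.6). For Mmp14 the rest was mostly Mmp14-207, a retained-intron transcript of 779 bases at 1.56 and 1.52 TPM.

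Shared sequence between members was short for nearly all pairs. Of 1275 pairs, 2 had transcripts with at least 100 bases in common, Mmp1a with Mmp1b (134 bases) and Mmp10 with Mmp3 (104), all of them silent or at 6 counts or fewer. On the genome, 14 members were overlapped by another protein-coding gene, and 11 shared exon bases with such a gene. The same shares over all genes were not computed. For some the partner was far more abundant. Mmp24 shares 637 exon bases with BC029722, at 11.4 TPM on average on the opposite strand, and had 1 count in each library. Mmp11 shares 155 exon bases with Chchd10, a mitochondrial protein gene at 599 and 624 TPM on the opposite strand, and the source of its 76 and 96 counts was not tested.

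None of the 20 members tested reached a 2-fold ratio in TPM between the libraries. Of all 11940 genes tested, 0.603% met that rule, so none among 20 is near the share over all genes. The rule was met by 0.377% higher in library 2 and 0.226% higher in library 1. The members' log2 ratios of library 2 over library 1 (with 1 added to each TPM) ran from -0.24 to 0.23. Their median was -0.03, against -0.01 for all genes tested. Ratios of expected counts per total count were set against their exact 95% interval (Clopper-Pearson), which covers counting error only. It lay above 1 for 4 of the 20, against 12.9% of all genes tested, and below 1 for 4, against 10.4%. For 12 of the 20 members it included 1, while it excluded 1 on either side for 23.3% of all genes tested.

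Higher in library 2 were Timp3, with a count ratio of 1.09 (1.06 to 1.12), Adamts1 with 1.12 (1.04 to 1.21), Adamts2 with 1.15 (1.003 to 1.32) and Adamtsl3 with 1.19 (1.03 to 1.38). For Adamtsl3 the TPM of the second quantification had the opposite direction, with a log2 ratio of -0.16. Lower in library 2 were Mmp2, with a ratio of 0.877 (0.806 to 0.954), Adamts5 with 0.798 (0.721 to 0.883), Adamts7 with 0.819 (0.736 to 0.910) and Adamts10 with 0.842 (0.721 to 0.983). For the other 12 the interval included 1, as in Timp4 at 0.985 (0.917 to 1.06) and Mmp15 at 1.02 (0.968 to 1.07). Below the detection level, Adamts6 had a ratio of 0.721 (0.551 to 0.941) and Mmp9 of 0.499 (0.237 to 0.995). With 2 libraries these are differences between those libraries.

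**Figure D3:**
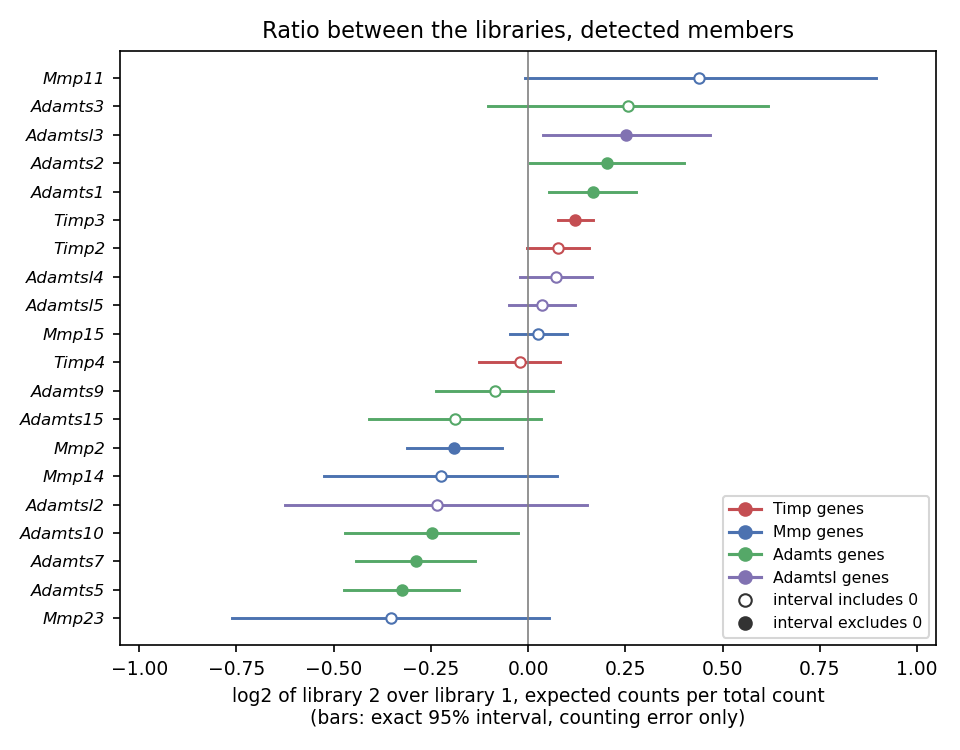
Library 2 over library 1 for the 20 detected members, as log2 of expected counts per total count, with the exact 95% interval as a bar. Filled points, 4 on each side of 0, have intervals that exclude 0, and no point reaches 1 in size.

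Cell type markers differed between the libraries as well. All 6 adipocyte markers, which summed to 10.6 and 39.4 TPM, and all 5 atrial markers, at 1182 and 1575 TPM, had count ratio intervals above 1. Of the 6 endothelial markers (416 and 423 TPM) 5 had intervals below 1 and 1 above, of the 7 fibroblast markers (413 and 386 TPM) 3 were below and 0 above, and of the 4 mesothelial markers (14.5 and 12.2 TPM) 2 were below. Of 5 macrophage markers (35.9 and 37.9 TPM) 2 were above, and of 7 mural markers (238 and 227 TPM) 1 was above and 1 below. Of the 6 cardiomyocyte markers 3 were above and 1 below. Over all genes tested, 12.9% had intervals above 1 and 10.4% below. The interval narrows as counts rise, so it excludes 1 more readily for abundant genes. The 5 markers of cartilage and valve cells summed to 3.27 and 2.75 TPM, with 1 detected. The part of any difference in tissue makeup in the ratios of Mmp2, Timp3 and the others was not tested.

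Many partners of these enzymes were detected. Of 23 genes that activate, inhibit, anchor or clear matrix proteases, 16 were detected, against 48.9% of all protein-coding genes. The list was chosen with earlier results of these data known, so this count describes the chosen genes only. The highest was Bsg, an inducer of Mmp expression also known as a lactate transporter chaperone, at 453 and 477 TPM. Cd151, a tetraspanin, followed at 105 and 113, and Furin, the convertase that activates membrane-type Mmp and many Adamts precursors, at 29.2 and 27.7. Tspan12 stood at 22.01 and 23.39 TPM and Lrp1, the receptor that takes up protease and inhibitor complexes, at 22.5 and 20.8. Reck, a membrane-anchored Mmp inhibitor, stood at 1.61 and 1.72. The plasminogen gene Plg, made in liver, had 0 counts, while its activators Plat (4.92 and 4.66 TPM) and Plau (2.46 and 2.00) were detected.

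**Figure D4:**
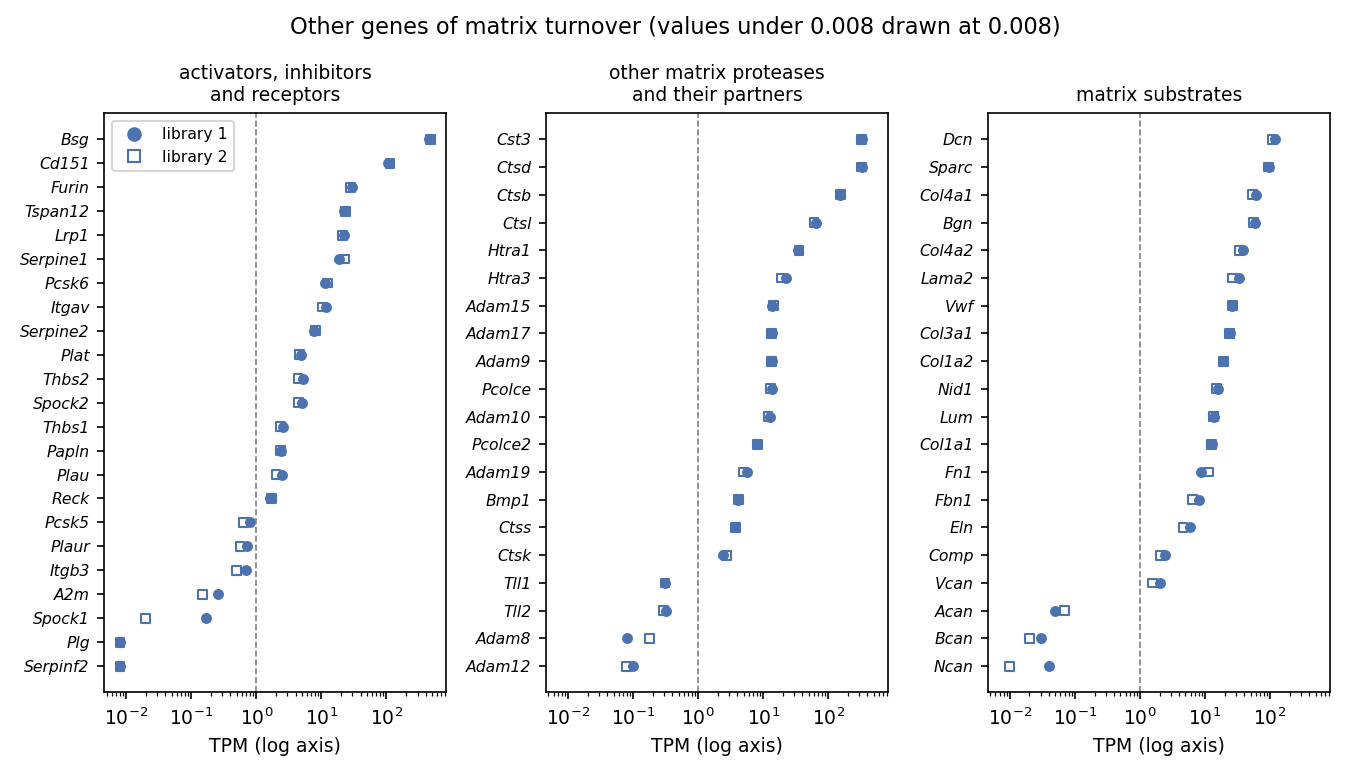
TPM on a log axis, by library, of 3 lists: genes that activate, inhibit or clear matrix proteases (left), other proteases of the matrix with their partners (middle) and matrix substrates (right), with a dashed line at 1 TPM. Bsg, Cd151, Cst3, Ctsd, Ctsb and Dcn exceed 100 TPM in both libraries, above every Timp, Mmp and Adamts gene.

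A further list held 20 genes of other proteases with their partners, among them the procollagen C-proteinase enhancers Pcolce and Pcolce2. Of these 20, 16 were detected, against 48.9% of all protein-coding genes, and this list too was chosen with earlier results known. The highest was the cystatin Cst3, an inhibitor of cysteine proteases, at 332 and 327 TPM, followed by the lysosomal cathepsins Ctsd (330 and 328), Ctsb (150 and 155) and Ctsl (65.1 and 60.3), with the serine protease Htra1 at 34.6 and 35.4. Each was at or above the levels of Mmp15 and Mmp2. Of 20 matrix substrates, chosen in the same way, 17 were detected, against the same 48.9%. The highest were the proteoglycan Dcn at 119 and 110 TPM and Sparc at 95.2 and 94.1. The basement membrane collagens Col4a1 (61.1 and 54.3) and Col4a2 (38.9 and 33.3) and the proteoglycan Bgn (57.99 and 55.01) followed. Versican, Vcan, was low at 2.03 and 1.54 TPM, and the cartilage and brain proteoglycans Acan, Bcan and Ncan were below 0.1.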

How the data were processed

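Total RNA of 2 heart libraries, made from 300 ng each with ERCC spike-ins and a directional kit after rRNA reduction, per the labels, was quantified by the authors against mm10 and annotation M21, per the deposited readme. The sources used here do not name the aligner or the estimator. Per the file headers, the deposited tables give expected counts, TPM and FPKM, in which shared reads are split by an estimator. Total expected counts were 39819960 and 37060119, and in the second quantification 42977135 and 38957328. The 26345 entries that are not annotated genes stayed in the TPM scale and were not described.

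Members were matched by gene identifier, and names and coordinates came from GENCODE M21. No test between groups was possible. Counts were rounded for ratios and intervals, and the 2-fold rule, with a pseudocount of 1, was applied to genes with 10 counts or more in either library and a mean of 1 TPM or more. The ratio step was run on simulated libraries that held counting error alone, the error that the interval assumes. That run checks the computation only and cannot show how the interval behaves with the spread of real libraries. TMM factors came from edgeR 4.0.16 and size factors from DESeq2 1.42.0. Other tools were Python 3.11.15, pandas 2.3.3, scipy 1.17.1, Biopython 1.88 and matplotlib 3.10.9. Codon patterns were read in GENCODE M21 transcripts, in place of the planned search in proteins. The pattern of the inhibitors was added later, and asparagine was allowed after the search with glycine alone was seen.

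Members and lists were chosen with earlier results of these data known. Genes named with values are members detected in either quantification, the highest of each role list, those whose interval excludes 1, and the 5 highest of each list of other pathway genes, while cell type markers are given as sums and counts. Ly6g, Camp, Elane, S100a8, S100a9, Reck, Plg, Pcolce, Pcolce2, Plat, Plau, Vwf, Vcan, Acan, Bcan, Ncan, Chchd10 and BC029722 were named after their values were seen, as were the low members given with values outside this rule. Alternatives were the second quantification, protein-coding transcripts alone, FPKM, other thresholds, pseudocount and scaling, and each library alone.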

Additional observations from a re-analysis of the deposited data

How the results depend on the processing

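The 2-fold count between the libraries was 0 under all 6 alternatives (the second quantification, protein-coding transcripts alone, a pseudocount of 0.1, no filter on low values, TMM and DESeq2 scaling), though with 1 added to each TPM a member below 1 TPM could hardly reach it. The number of detected members was 20, and it ranged from 18 to 25 with protein-coding transcripts alone, the second quantification, FPKM and a threshold of 0.5 TPM. It moved to 13 at a threshold of 2 TPM and to 34 when 10 expected counts in both libraries were asked for in place of TPM, and counts, unlike TPM, are not divided by length. The summed TPM of Mmp genes, 44.6, moved to 40.9 in the second quantification and to 42.0 with protein-coding transcripts alone, and that of Adamts and Adamtsl genes, 89.1, to 84.0 and 61.2. The summed TPM of Timp genes stayed within its SD, at 106 and 101. The share of Timp3 in the Timp TPM, 56.6%, moved to 53.2% in the second quantification and 55.8% with coding transcripts, and that of Mmp2 in the Mmp TPM, 34.6%, to 29.9% in the second quantification. In a single library, detection counted 21 members in either, the sums ran from 98.9 to 107 (Timp), 43.1 to 46.1 (Mmp) and 87.9 to 90.2 (Adamts and Adamtsl), and the shares from 56.4% to 56.7% (Timp3) and 32.7% to 36.5% (Mmp2). For 22 named members, 22 levels recomputed in the second quantification or with coding transcripts stayed within the SD and 22 did not. Of their library ratios, 62 moved by less than the counting error and 3 by more. A further 1, that of Adamtsl3 given next, also moved by more, and 7 in all changed sign. For 1 member with an interval that excluded 1 the sign changed, Adamtsl3, with a log2 ratio of 0.23 that became -0.16 in the second quantification, and the cause was not tested. Among the 31 members that were not detected, depth limits those with few counts or none. Others had up to 143 counts in a library, as Adamts6 with 143 and 96 and Adamts12 with 97 and 79. These were low in TPM, which is scaled for length.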
